A study of Solanum lycopersicum with 6 samples.

Results

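The nuclear genes that code for the light-harvesting and photosystem proteins of tomato (Solanum lycopersicum) were followed through 6 leaf libraries of mRNA and of ribosome footprints. They were taken as a fixed list of 37 gene models out of 35768 in the deposited count table. The first 24 are listed as chlorophyll a/b binding proteins. The other 13 are listed together as nuclear-encoded subunits of photosystems I and II, PsbS, plastocyanin and ferredoxin-NADP reductase. The count table and the tomato gene table used here pair none of these identifiers with a gene name, so the classes rest on the list alone, their names were not checked against the data, and no single subunit is named. All 37 identifiers were present in the table, and all 37 had enough counts to be tested. Identifiers are written without the version suffix of the table.

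Chlorophyll a/b binding proteins form the antennae that gather light in the thylakoid membrane of the chloroplast and pass the energy to the reaction centres of photosystems I and II. The other class covers subunits around those reaction centres, PsbS, which takes part in the safe dissipation of excess light, plastocyanin, a copper protein that carries electrons to photosystem I, and ferredoxin-NADP reductase, which makes NADPH. All are coded in the nucleus, translated on cytosolic ribosomes and imported into the chloroplast, and their transcripts are known to be plentiful in green leaves.

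All 6 libraries came from true leaves of plants grown at 28 °C with 12 h of light, and the labels give the age as 3 weeks in one field and 2 weeks in another. The 2 CHX libraries hold footprints, which are the pieces of mRNA that ribosomes shield from RNase, of 26 to 32 nt from extracts made with 100 µg/ml cycloheximide, an inhibitor that stops elongating ribosomes. In the 2 LTM libraries the leaves were treated with LTM, an abbreviation that the labels leave unexplained, and the extract was then treated with puromycin. These footprints stand for initiating ribosomes in the labels. The 2 mRNA libraries were made from total RNA of an aliquot of the CHX extract after rRNA depletion. No genotype, cultivar or leaf number is given in the sources used here, and whether the replicates came from different plants is not stated, so the p-values cover library-to-library spread that may be technical alone.

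The libraries held between 18240140 counts, in LTM replicate 1, and 48704200, in CHX replicate 1, and the 37 models held between 2190508 and 10485465 counts in a library. The lowest count of any of them in any library was 10936, so counting error is small beside the spread between libraries. Footprints were counted over coding regions and mRNA over transcript regions, so a ratio of footprints to mRNA also carries the size of the untranslated part of the transcript. LTM reads were likewise counted along the whole coding region and not at start codons. The leaves are a mixture of cells, in which fewer cells of a type and less RNA per cell cannot be told apart. The counts are not divided by length, so levels of different models are not compared as amounts of RNA.

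The 37 models together took about 2 times the share of footprint reads that they took of mRNA reads. They held 8.83% and 9.41% of the counts in mRNA replicates 1 and 2, 21.5% and 19.9% in CHX, and 17.97% and 18.6% in LTM. No 2 kinds of library overlapped, with CHX highest, LTM next and mRNA lowest. By class, the 24 chlorophyll a/b binding models held 6.43% ± 0.244 of mRNA counts (SD, n = 2), 15.1% ± 0.870 of CHX counts and 13.3% ± 0.568 of LTM counts. The 13 others held 2.69% ± 0.168, 5.62% ± 0.277 and 4.99% ± 0.121 in the same order. Both classes followed the same order of the 3 kinds. Among the 37, the antenna class made up 70.9% and 70.2% of the counts in mRNA, 72.97% and 72.7% in CHX, and 71.7% and 73.6% in LTM. With 2 libraries against 2, an exact two-sided permutation test cannot give a p under 0.333, so these shares were not tested.

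**Figure D1:**
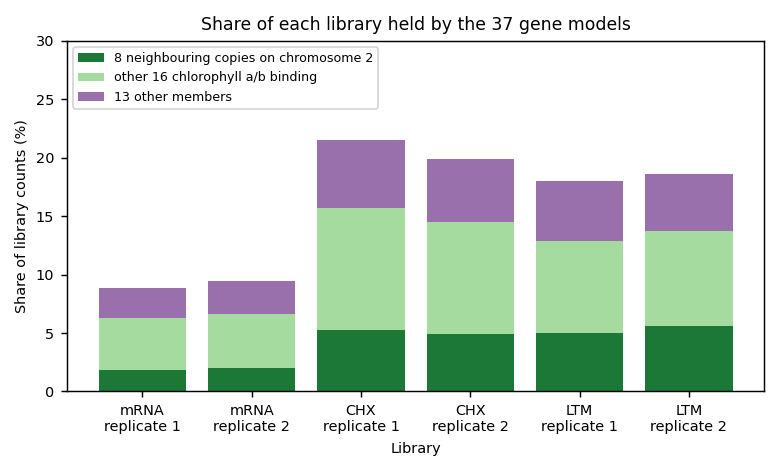
Share of each library's counts (%, vertical axis) held by the 37 models in the 6 libraries (horizontal axis), stacked as the 8 neighbouring copies on chromosome 2, the other chlorophyll a/b binding models and the 13 other members. The stacks reach 8.83% and 9.41% in mRNA and between 17.97% and 21.5% in the footprint libraries.

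Levels below are CPM, counts divided by the library total and scaled to a common depth. Across the 37 models they ran from 441 to 4976 CPM in mRNA replicate 1, with a median of 2219, and from 548 to 5483 in mRNA replicate 2, with a median of 2354. The medians were 5512 and 5203 CPM in the CHX replicates and 4165 and 4563 CPM in the LTM replicates. Of the 100 models with most counts in a library, the list supplied 32 and 33 in mRNA, 35 and 35 in CHX, and 35 and 36 in LTM. Among the 20 models with most counts it supplied 1 in each mRNA library, 11 and 10 in CHX, and 11 and 12 in LTM. These places in the order of reads depend on gene length.

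The antenna model that drew most reads over the 6 libraries was Solyc06g063370. It stood at 4976 and 5483 CPM in the mRNA replicates, 12381 and 11029 in CHX and 10032 and 11238 in LTM. Its mRNA values lay far below all 4 footprint values, while CHX and LTM overlapped. Among the 13 others, Solyc07g044860 drew most, with 3581 and 3836 CPM in mRNA, 8959 and 7859 in CHX and 7403 and 7358 in LTM. At the other end, Solyc02g069450 of the same class had 441 and 548 CPM in mRNA, 1322 and 1212 in CHX and 1031 and 1021 in LTM. For both of these, mRNA was lowest, LTM intermediate and CHX highest, with no overlap between kinds.

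**Figure D2:**
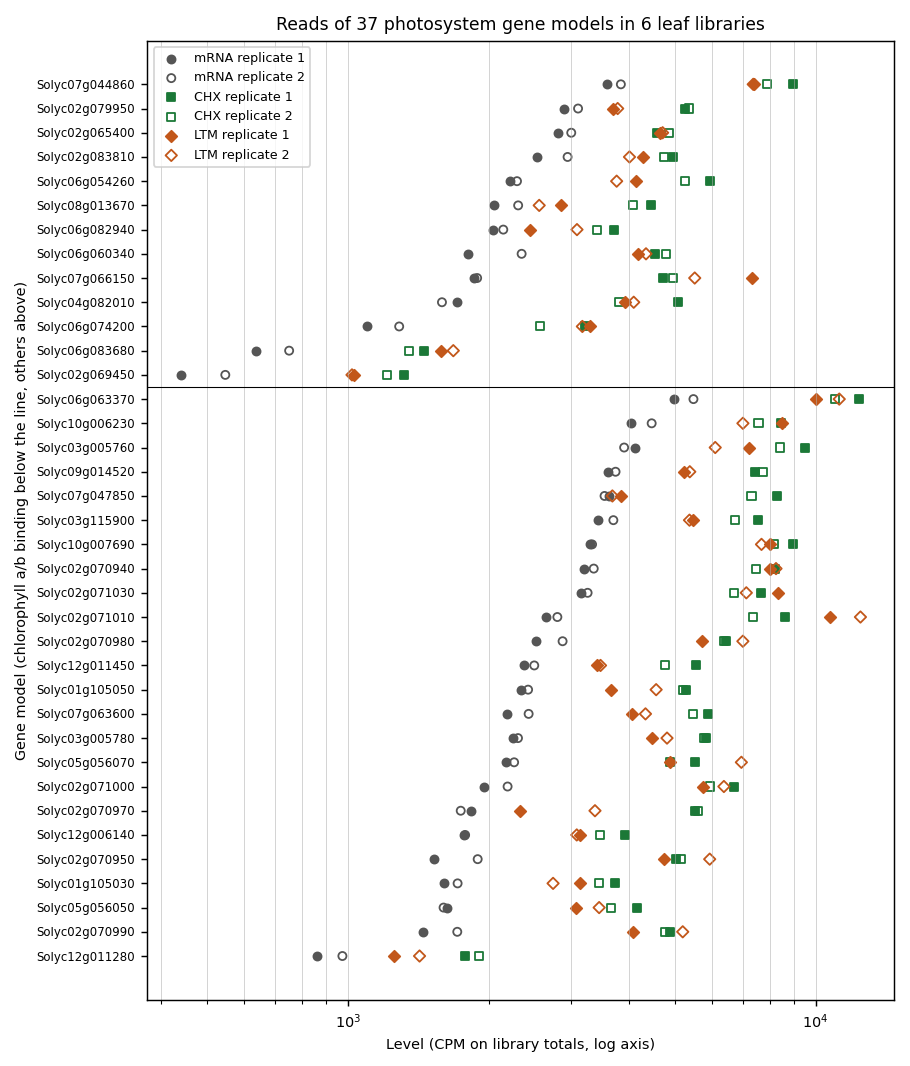
Level of each of the 37 models in each library (CPM on library totals, logarithmic horizontal axis), one row per gene model, ordered within each class by mean mRNA level, with filled and open symbols for replicates 1 and 2. In every row both mRNA values lie to the left of both CHX values and both LTM values, and LTM values lie on either side of CHX.

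Elongating ribosomes for a given transcript level were read from the ratio of CHX footprints to mRNA. Every one of the 37 models was higher in CHX, by 1.64-fold to 3.12-fold in the fit. All 24 antenna models and all 13 others had an edgeR adjusted p under 0.05 in that direction, where 22.5% of the 20806 models tested were called higher. No member was called lower, 0 were lower at an unadjusted p under 0.05, and DESeq2 called 0 lower, while 27.4% of all models were called lower by edgeR. The CPM ranges of the 2 kinds were apart in all 37, against 34.7% of all models apart in this direction and 39.3% in the other. A ratio of 2-fold or more was fitted for 31 of the 37, against 10.2% of all models (21.1% in the other direction). That count depends on the filter. With models kept only at 10 CPM or more in 2 libraries, all models moved by a median of -0.27. The members' log2 ratios then ran from 0.44 to 1.37 with a median of 0.91, so most lay below 2-fold.

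The median log2 ratio of CHX to mRNA was 1.19 over the 37, 1.21 over the antenna class and 1.19 over the others, beside -0.017 over all tested models. Other abundant transcripts leaned the same way in CHX, but were split. Over the 850 other models with at least 100 CPM of mRNA the median was 0.47. These models are not matched to the members in level, since no member had under 441 CPM of mRNA. Their ratios reached down to -18.1. Of them, 48.6% were called higher and 25.9% lower. The members' ratios lay between the 81.2 and 96.4 percentiles of all tested models. Their spread was narrow, with an interquartile range of 0.30 on the log2 scale against 1.37 for all models, and the typical SE of a single ratio was 0.19.

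The 3 highest ratios belonged to antenna models with neighbouring identifiers on chromosome 2. Solyc02g070970 had 1833 and 1744 CPM in mRNA and 5512 and 5609 in CHX, a 3.12-fold difference (log2 ratio 1.64, SE 0.24, edgeR adjusted p = 0.00130). Solyc02g070990 rose from 1446 and 1715 CPM to 4878 and 4776, 3.10-fold (log2 ratio 1.63, SE 0.20, edgeR adjusted p = 0.000602). Solyc02g071000 rose from 1955 and 2197 to 6692 and 5938, 3.08-fold (log2 ratio 1.62, SE 0.19, edgeR adjusted p = 0.000493). In all 3 the CHX values lay well clear of the mRNA values. The 3 lowest ratios fell in the class of photosystem subunits and electron carriers. Solyc02g065400 had 2812 and 3005 CPM in mRNA and 4582 and 4861 in CHX, 1.64-fold (log2 ratio 0.71, SE 0.17, edgeR adjusted p = 0.00922). Solyc06g082940 had 2049 and 2151 in mRNA and 3700.2 and 3418 in CHX, 1.71-fold (log2 ratio 0.78, SE 0.20, edgeR adjusted p = 0.0138). Solyc02g079950 had 2900.5 and 3107 in mRNA and 5256 and 5368 in CHX, 1.78-fold (log2 ratio 0.84, SE 0.17, edgeR adjusted p = 0.00478). These too showed no overlap, but among the 37 only the first 2 lost their call in any of the 14 alternative fits. The call of Solyc02g065400 was lost without mRNA replicate 2 (edgeR adjusted p = 0.0711). The call of Solyc06g082940 was lost without mRNA replicate 2 (edgeR adjusted p = 0.0912), without CHX replicate 1 and with a 10 CPM filter, and over the 14 alternatives its adjusted p ran from 0.000603 to 0.0912, against 3.84e-06 to 0.0711 for Solyc02g065400.

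The log2 ratio of CHX to mRNA ran from 0.71 to 1.44 in the other class and from 0.93 to 1.64 in the antenna class, so the classes overlapped over most of their ranges. The upper end of the other class was Solyc04g082010, with 1714 and 1590.4 CPM in mRNA and 5077 and 3811 in CHX (log2 ratio 1.44, SE 0.23, edgeR adjusted p = 0.00188). Its CHX replicates were less alike than those of any other member. The lower end of the antenna class was Solyc10g006230, with 4033 and 4464 CPM in mRNA and 8417 and 7553 in CHX (log2 ratio 0.93, SE 0.19, edgeR adjusted p = 0.00499).

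**Figure D3:**
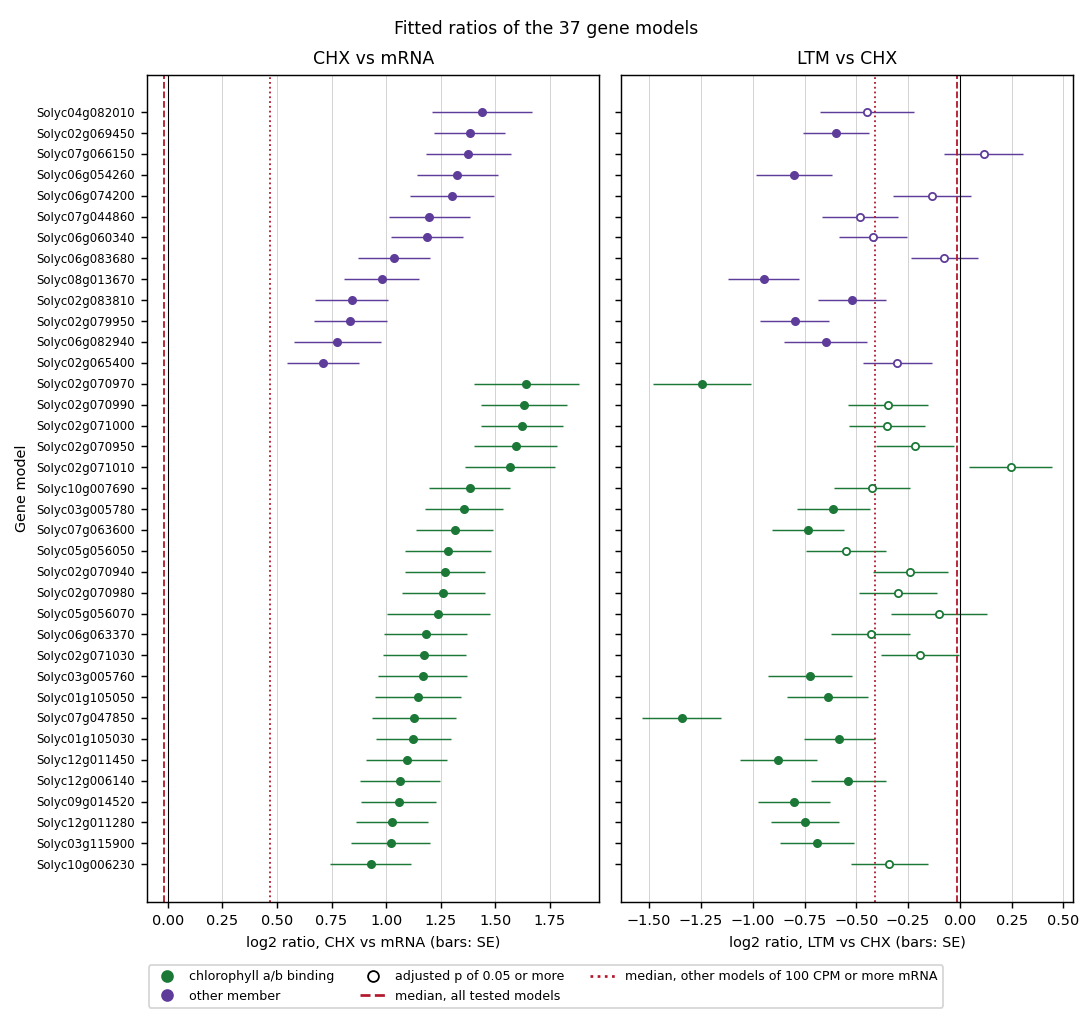
Fitted log2 ratios with SE (horizontal axes) for each gene model (rows), CHX against mRNA on the left and LTM against CHX on the right, with open points where the edgeR adjusted p was 0.05 or more, a dashed line at the median of all tested models and a dotted line at the median of the 850 other models with at least 100 CPM of mRNA. On the left all 37 points lie above both lines; on the right 35 of 37 lie below 0, spread around the dotted line.

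In all, 14 antenna models lie next to one another by their identifiers: 8 on chromosome 2, and a pair each on chromosomes 1, 3 and 5. Such copies can be near-identical in sequence, and how reads that match several copies were counted is not given in the sources used here, so values of single copies are uncertain. Summing the counts of a group avoids the split between its copies. A sum is still affected if reads that match several copies were discarded or counted more than once, which could not be checked. The 8 copies on chromosome 2 summed to 18285 and 19852 CPM in mRNA, 52972 and 49354 in CHX, and 49602 and 55697 in LTM. Both footprint kinds overlapped and lay above mRNA. With TMM scaling the log2 ratio of the sums was 1.44 for CHX against mRNA, inside the range of the single copies (1.18 to 1.64). For the pairs on chromosomes 1, 3 and 5 it was 1.14, 1.24 and 1.26. The 10 antenna models without a neighbour had a median of 1.08, beside 1.58 for the 8 copies; this difference was not tested.

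Within each pair the copies had close ratios of CHX to mRNA. On chromosome 3, Solyc03g005760 had 4117 and 3898 CPM in mRNA and 9498 and 8385 in CHX (log2 ratio 1.17, SE 0.20), and Solyc03g005780 had 2255 and 2312 in mRNA and 5830.2 and 5767 in CHX (log2 ratio 1.36, SE 0.18). On chromosome 5, Solyc05g056050 had 1630.1 and 1603 CPM in mRNA and 4156 and 3649.8 in CHX (log2 ratio 1.28, SE 0.20), and Solyc05g056070 had 2181 and 2269 in mRNA and 5524 and 4876 in CHX (log2 ratio 1.24, SE 0.23). On chromosome 1, Solyc01g105030 had 1605 and 1718 CPM in mRNA and 3722 and 3450.3 in CHX (log2 ratio 1.13, SE 0.17), and Solyc01g105050 had 2351 and 2430.1 in mRNA and 5276 and 5203 in CHX (log2 ratio 1.14, SE 0.20). In each pair the ratios of the 2 copies lay within about 1 SE of each other, and each copy was apart from mRNA in both replicates.

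The single copies on chromosome 2 all carried more CHX reads than mRNA reads. Besides the 3 given above, Solyc02g070940 had 3197 and 3357 CPM in mRNA and 8177 and 7456 in CHX (log2 ratio 1.27, SE 0.18), and Solyc02g070950 had 1527 and 1896 in mRNA and 5021 and 5150.5 in CHX (log2 ratio 1.59, SE 0.19). Solyc02g070980 had 2523 and 2879.6 in mRNA and 6432 and 6371 in CHX (log2 ratio 1.26, SE 0.19). Solyc02g071010 had 2648 and 2806 in mRNA and 8616 and 7357 in CHX (log2 ratio 1.57, SE 0.21), and Solyc02g071030 had 3156 and 3257 in mRNA and 7644 and 6696 in CHX (log2 ratio 1.18, SE 0.19). The 5 copies with ratios of 1.57 or more were Solyc02g070950, Solyc02g070970, Solyc02g070990, Solyc02g071000 and Solyc02g071010, and the 3 others lay at 1.27 or less.

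Over the same coding regions, LTM footprints, those of initiating ribosomes by the labels, were next set against CHX footprints. This ratio shares its CHX libraries with the one above. The members leaned downward: 18 of 37 were called lower in LTM by edgeR (adjusted p under 0.05), where 19.6% of all tested models were, and 19 were not called. They were 12 of the 24 antenna models and 6 of the 13 others. No member was called higher, 0 were higher at an unadjusted p under 0.05, and DESeq2 called 0 higher, against 22.4% of all models by edgeR. The median log2 ratio was -0.52 over the 37, -0.54 over the antenna class and -0.48 over the others, beside -0.013 over all tested models. The 850 other models with at least 100 CPM of mRNA leaned the same way, with a median of -0.41 and 40.8% called lower.

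How far these ratios lie from 0 depends on how the libraries are scaled. On library totals in place of TMM factors, the log2 ratios of all models moved up by a median of 0.29, calls among all models turned from 4654 higher and 4074 lower to 5812 and 1228, and 4 members were called lower, beside 5.90% of all models, and 0 higher. The members' median was then -0.23 and that of all models 0.26. Leaving out CHX replicate 1 brought the members called lower to 6 of 37, near the 11.6% of all models. It was 12 without CHX replicate 2, beside 14.5% of all models, 11 without mRNA replicate 2 (13.4%) and 11 without LTM replicate 1 (14.3%). With models kept only at 10 CPM or more in 2 libraries it was 11, beside 20.7% of the models then tested. Of the 18 calls, 3 were made in all 14 alternative fits, 8 in 10 to 13 of them and 7 in 4 to 8. Of the 19 members not called, 5 were called lower in 1 to 4 of the 14.

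The members' ratios of LTM to CHX had an interquartile range of 0.42 on the log2 scale, against 1.26 for all tested models and 0.80 for the 850 other abundant ones. Of the 37, 2 were at least 2-fold lower in LTM, close to the 6.12% of all models, and 0 were at least 2-fold higher, where 20.9% were. Solyc07g047850, an antenna model, had 8262 and 7296 CPM in the CHX replicates and 3837 and 3679 in LTM, 2.54-fold lower (log2 ratio -1.34, SE 0.19, edgeR adjusted p = 0.00126). Solyc02g070970, one of the chromosome 2 copies, had 5512 and 5609 in CHX and 2332 and 3377 in LTM, 2.37-fold lower (log2 ratio -1.25, SE 0.24, edgeR adjusted p = 0.00465). Solyc08g013670 of the other class had 4445 and 4067 in CHX and 2851 and 2567 in LTM, 1.93-fold lower (log2 ratio -0.95, SE 0.17, edgeR adjusted p = 0.00372). In all 3 the LTM values lay below both CHX values, and the call held in all 14 alternative fits, library totals included. At the top of the order, Solyc02g071010 had 8616 and 7357 CPM in CHX and 10712 and 12472 in LTM (log2 ratio 0.25, SE 0.20, edgeR adjusted p = 0.357). Solyc07g066150 of the other class had 4724 and 4957 in CHX and 7329 and 5518 in LTM (log2 ratio 0.11, SE 0.19, edgeR adjusted p = 0.661). Solyc06g083680, also of the other class, had 1456 and 1350.3 in CHX and 1579.5 and 1682 in LTM (log2 ratio -0.075, SE 0.16, edgeR adjusted p = 0.743). For these 3 the CPM on library totals were apart and higher in LTM, as for 46.8% of all models, but the test did not call them, and the sign of the last 2 changed with the scaling or with a library left out.

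In all, 22 of the 37 members had both LTM values below both CHX values on library totals, against 22.3% of all models. Among the 850 other models with at least 100 CPM of mRNA, 355 did. Of the antenna models without a neighbour, 7 of 10 were called lower, beside 19.6% of all tested models and 40.8% of the 850 other abundant ones. Their median log2 ratio was -0.71. Of the 8 copies on chromosome 2, 1 was called lower, which is Solyc02g070970, and their median was -0.27. The difference between these sets was not tested, and it depends on the scaling. On library totals 2 of the 10 and 1 of the 8 were called lower, beside 5.90% of all models. The medians were then -0.42 and 0.021. After Solyc07g047850, the lowest of the antenna models without a neighbour were Solyc12g011450 (5539 and 4773 CPM in CHX, 3416 and 3471 in LTM; log2 ratio -0.88, SE 0.18, edgeR adjusted p = 0.00723) and Solyc09g014520 (7438 and 7714 in CHX, 5241 and 5385 in LTM; log2 ratio -0.80, SE 0.17, edgeR adjusted p = 0.00777). The model with most reads, Solyc06g063370, was not called (log2 ratio -0.43, SE 0.19, edgeR adjusted p = 0.105; called lower in 1 of 14 alternatives), nor was Solyc10g006230 (log2 ratio -0.34, SE 0.19, edgeR adjusted p = 0.176). In the other class, Solyc07g044860 (log2 ratio -0.48, SE 0.18, edgeR adjusted p = 0.0670; called lower in 3 of 14) and Solyc02g065400 (log2 ratio -0.30, SE 0.16, edgeR adjusted p = 0.176) were not called either.

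The remaining antenna models without a neighbour had mRNA lowest, LTM between and CHX highest. Solyc07g063600 had 2191 and 2436 CPM in mRNA, 5892 and 5480 in CHX and 4051 and 4330.2 in LTM (log2 ratios 1.31 for CHX to mRNA and -0.73 for LTM to CHX). Solyc12g011280 had 860.1 and 974 CPM in mRNA, 1783 and 1911 in CHX and 1257 and 1424 in LTM (log2 ratios 1.03 for CHX to mRNA and -0.75 for LTM to CHX), and Solyc03g115900 had 3422 and 3697 CPM in mRNA, 7544 and 6734 in CHX and 5469 and 5377 in LTM (log2 ratios 1.02 for CHX to mRNA and -0.69 for LTM to CHX). In these 3, LTM lay below CHX in both replicates and was called lower, in the 14 alternatives 11, 12 and 10 times. Solyc12g006140 had 1774 and 1782 CPM in mRNA, 3912 and 3457 in CHX and 3132 and 3088 in LTM (log2 ratios 1.06 for CHX to mRNA and -0.54 for LTM to CHX). Solyc10g007690 had 3296 and 3329 CPM in mRNA, 8958 and 8166 in CHX and 7975 and 7664 in LTM (log2 ratios 1.38 for CHX to mRNA and -0.42 for LTM to CHX). LTM lay below CHX without overlap in these as well; the adjusted p in edgeR was 0.0468 for the first and 0.0982 for the second. These lie on either side of the threshold, but the first was called in 4 and the second in 3 of the 14 alternatives, with adjusted p from 0.0131 to 0.393 and from 0.0382 to 0.663. In the class of photosystem subunits and electron carriers, Solyc06g054260 had 2219 and 2301 CPM in mRNA, 5953 and 5266 in CHX and 4139 and 3757 in LTM (log2 ratios 1.33 for CHX to mRNA and -0.80 for LTM to CHX), and Solyc02g083810 had 2534 and 2951 CPM in mRNA, 4959 and 4737 in CHX and 4277 and 4002 in LTM (log2 ratios 0.84 for CHX to mRNA and -0.52 for LTM to CHX). Both were called lower in LTM than in CHX, the first in 11 and the second in 5 of the 14 alternatives, where the adjusted p of the second reached 0.435. Solyc06g060340 had 1808 and 2354 CPM in mRNA, 4535 and 4790 in CHX and 4165 and 4341 in LTM (log2 ratios 1.19 for CHX to mRNA and -0.42 for LTM to CHX), and Solyc06g074200 had 1102 and 1289 CPM in mRNA, 3218 and 2573 in CHX and 3303 and 3174 in LTM (log2 ratios 1.30 for CHX to mRNA and -0.14 for LTM to CHX). Neither was called in that comparison, though the first was in 3 of the 14 alternatives. In the second the LTM and CHX values overlapped, and its sign changed in 4 of the 14.

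The calls of the pairs differed in LTM against CHX, but the difference between pairs was not tested. Both copies on chromosome 3 were called lower, Solyc03g005760 with 7203 and 6104 CPM in LTM (log2 ratio -0.72, SE 0.20, edgeR adjusted p = 0.0231) and Solyc03g005780 with 4464 and 4814 (log2 ratio -0.61, SE 0.18, edgeR adjusted p = 0.0261). Both on chromosome 1 were also called lower, Solyc01g105030 with 3131 and 2748 CPM in LTM (log2 ratio -0.58, SE 0.17, edgeR adjusted p = 0.0290) and Solyc01g105050 with 3659 and 4563 (log2 ratio -0.64, SE 0.20, edgeR adjusted p = 0.0327). These 4 calls were kept in 7 to 10 of the 14 alternative fits, with adjusted p from 0.00142 to 0.317 over them, and each was lost on library totals and without CHX replicate 1. Neither copy on chromosome 5 was called, Solyc05g056050 with 3083 and 3447 CPM in LTM (log2 ratio -0.55, SE 0.19, edgeR adjusted p = 0.0538; called lower in 4 of 14 alternatives) and Solyc05g056070 with 4887 and 6942 (log2 ratio -0.10, SE 0.23, edgeR adjusted p = 0.751). The LTM replicates of Solyc05g056070 lay far apart, one within the CHX range and one above it. The summed log2 ratio was -0.61, -0.68 and -0.28 for the pairs on chromosomes 1, 3 and 5, and -0.25 for the 8 copies on chromosome 2, where library totals gave 0.041.

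Shares within a group of models do not depend on the scaling between libraries. Among the 8 chromosome 2 copies, Solyc02g071010 made up 14.5% and 14.1% of the counts in the mRNA replicates, 16.3% and 14.9% in CHX and 21.6% and 22.4% in LTM. Solyc02g070970 made up 10.02% and 8.79% in mRNA, 10.4% and 11.4% in CHX and 4.70% and 6.06% in LTM. LTM stood apart from the other 4 libraries in both, upward in the first copy and downward in the second. Solyc02g071000 was somewhat lower in LTM, with 12.6% and 12.03% in CHX and 11.6% and 11.4% in LTM, and the shares of the other 5 copies overlapped between CHX and LTM. These are 2 libraries against 2 and were not tested. Reads matching several copies could be divided differently between copies in footprints of 26 to 32 nt and in mRNA reads, which was not tested. CHX and LTM footprints have the same size range, but how shared reads were divided between copies in CHX and in LTM was not tested either.

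**Figure D4:**
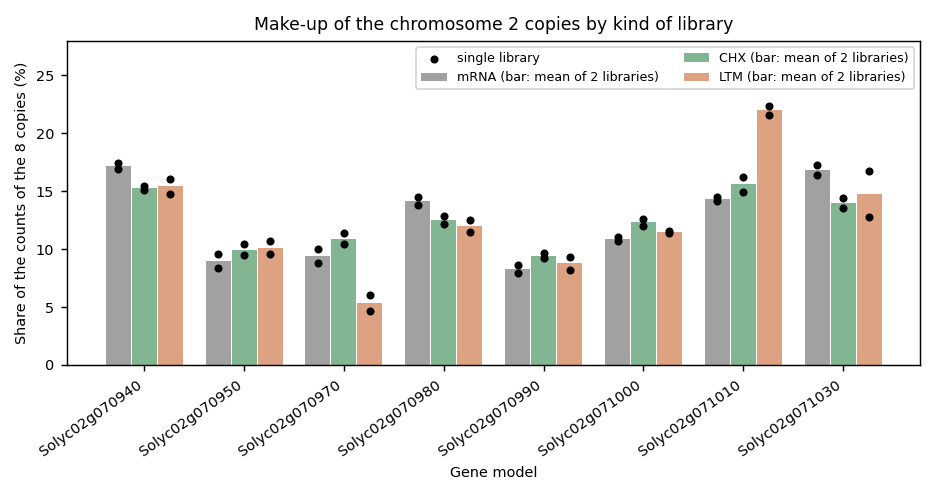
Share of the summed counts of the 8 chromosome 2 copies (%, vertical axis) held by each copy (horizontal axis) in mRNA, CHX and LTM, with bars for the mean of 2 libraries and points for single libraries. Solyc02g071010 stands at 21.6% and 22.4% in LTM and Solyc02g070970 at 4.70% and 6.06%, against CHX shares of 16.3% and 14.9% and of 10.4% and 11.4%.

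The same was done over all 37 models. Solyc02g071010 held 4.002% and 3.70% of the members' CHX counts and 5.96% and 6.70% of their LTM counts. Solyc07g066150 held 2.19% and 2.49% of CHX counts and 4.08% and 2.97% of LTM counts. Both took more of the LTM reads in each replicate, the second with a wide gap between LTM replicates. Solyc07g047850 held 3.84% and 3.67% of CHX and 2.13% and 1.98% of LTM counts, and Solyc02g070970 held 2.56% and 2.82% of CHX and 1.30% and 1.82% of LTM counts. Both took less in each replicate. Of the 37 shares, 10 were higher in both LTM libraries than in both CHX libraries, 14 were lower and 13 overlapped. These shares are taken within the members, so no share over all models stands beside the counts. With 2 libraries against 2 the smallest exact two-sided permutation p is 0.333, so they were not tested. Shares must sum to the same total, so a rise in one is met by a fall elsewhere.

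**Figure D5:**
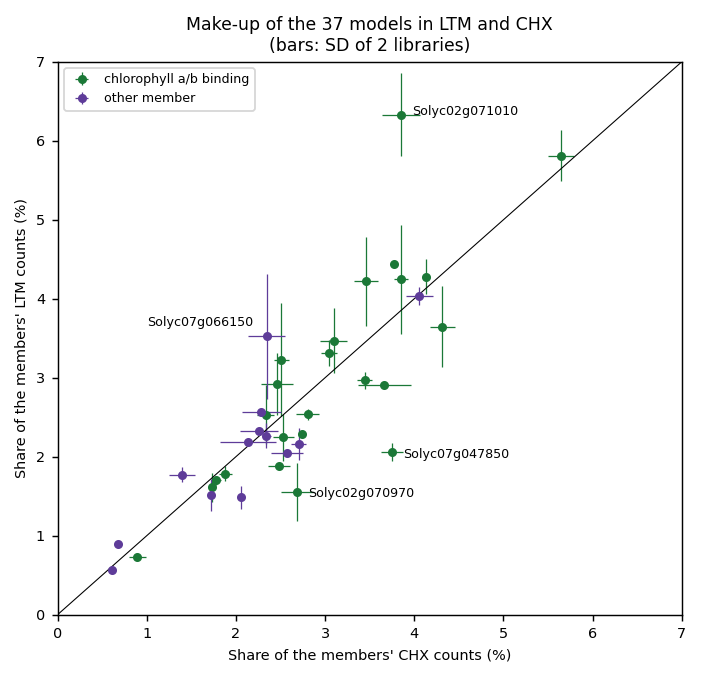
Share of the 37 models' LTM counts (%, vertical axis) against their share of CHX counts (%, horizontal axis), one point per gene model with SD of 2 libraries as bars and a line of equal shares. Solyc02g071010 and Solyc07g066150 lie above the line and Solyc07g047850 and Solyc02g070970 below it.

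LTM footprints were last compared with transcript level. This ratio uses the mRNA and LTM libraries of the ratios above again, and the LTM leaves were treated differently from those that gave the mRNA. Of the 37 members, 24 were called higher in LTM by edgeR (adjusted p under 0.05), 16 of the antenna class and 8 of the others, where 25.5% of all tested models were. None was called lower, 0 were lower at an unadjusted p under 0.05 and DESeq2 called 0 lower, against 27.4% of all models by edgeR. On library totals, LTM lay above mRNA without overlap in all 37, as in 48.2% of all models (29% lay below). A ratio of 2-fold or more was fitted for 8 of the 37, against 19.1% of all models, and 20% of all models were at least 2-fold lower. The median log2 ratio was 0.72 over the 37, beside 0.018 over all tested models and -0.12 over the 850 other models with at least 100 CPM of mRNA, of which 16.2% were called higher. Library totals moved all models up by a median of 0.26 and gave 32 members higher, beside 32.9% of all models. Without mRNA replicate 2, 15 members were called higher, beside 19.4% of all models. Of the 24 calls, 14 were made in all 14 alternative fits, 8 in 11 to 13 of them and 2 in 7, and 10 of the 13 members not called were called higher in 1 to 5.

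The highest of these ratios was that of Solyc02g071010, with 2648 and 2806 CPM in mRNA and 10712 and 12472 in LTM, 3.51-fold (log2 ratio 1.81, SE 0.21, edgeR adjusted p = 0.000232). Solyc07g066150 rose from 1859 and 1891 to 7329 and 5518, 2.81-fold (log2 ratio 1.49, SE 0.19, edgeR adjusted p = 0.000466), and Solyc02g070950 from 1527 and 1896 to 4744 and 5939.5, 2.60-fold (log2 ratio 1.38, SE 0.19, edgeR adjusted p = 0.000626). All 3 calls held in the 14 alternative fits. At the low end, Solyc07g047850 had 3626 and 3540.1 CPM in mRNA and 3837 and 3679 in LTM (log2 ratio -0.21, SE 0.19, edgeR adjusted p = 0.372). Solyc08g013670 had 2059 and 2314 in mRNA and 2851 and 2567 in LTM (log2 ratio 0.034, SE 0.17, edgeR adjusted p = 0.881), and Solyc02g079950 had 2900.5 and 3107 in mRNA and 3696 and 3776 in LTM (log2 ratio 0.038, SE 0.17, edgeR adjusted p = 0.863). In these 3 the LTM values on library totals lay above the mRNA values, while the TMM-scaled ratio was near or below 0. They were not called in any of the 14 alternatives, and the sign of each changed in some of them. Of the 8 copies on chromosome 2, 7 were called higher, all but Solyc02g070970 (log2 ratio 0.40, SE 0.23, edgeR adjusted p = 0.190).

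Replicates of a kind shifted most members together. With TMM scaling, 34 of 37 were higher in mRNA replicate 1 than in replicate 2, with a median log2 ratio of replicate 2 to replicate 1 of -0.15, and 36 of 37 were higher in CHX replicate 1, with a median of -0.23. In LTM, 28 of 37 were higher in replicate 2, by a median of 0.10. Over all tested models the same medians were 0 in mRNA, -0.0032 in CHX and -0.013 in LTM. Over models with at least 100 CPM of mRNA, members included, they were -0.0026, -0.070 and 0.071. On library totals the mRNA shift turned, with 32 of 37 higher in replicate 2. The widest gap in any kind was that of Solyc02g070970 in LTM, with 2332 and 3377 CPM, and the widest in the opposite direction in LTM was that of Solyc07g066150, with 7329 and 5518. These are 2 of the members named above for their LTM values. Within CHX the widest gap was that of Solyc04g082010, with 5077 and 3811 CPM.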

How the data were processed

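The authors deposited raw counts per gene model, whole numbers for 6 libraries, with reads counted over the transcript region in mRNA and over the coding region in LTM and CHX, per the file headers. What aligned and counted the reads, on which build, and how multiply matching reads were handled is not given in the sources used here. Groups and replicate numbers came from the sample titles. Models were kept with filterByExpr (20806 of 35768), scaled with TMM factors (0.863 to 1.16), and fitted over all 6 libraries in one quasi-likelihood model (glmQLFit, glmQLFTest) with library kind as factor, in R 4.3.3 with edgeR 4.0.16. P-values of the 3 contrasts are two-sided and were adjusted by Benjamini-Hochberg over the kept models, with a threshold of 0.05. TMM takes most models as unchanged, so ratios are relative to that majority. SEs were derived from the F statistic. CPM in the text is on library totals, while fitted ratios use TMM. Common dispersion was 0.0306, a coefficient of variation of 0.175.

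The alternatives were other scalings, 2 other filters, DESeq2 1.42.0, a 2-fold minimum, a replicate block, and each library left out. Neighbouring copies were antenna models chained by steps of at most 30 in the identifier number. The procedure was run on simulated counts in which all kinds shared a common profile apart from a small set of changed models. That setting differs from these data and does not test the scaling between kinds. The members, classes and lists were chosen with earlier results of these data known. The members set by rule for description were the 3 of each class with most reads, the 3 highest and the 3 lowest ratios per comparison and all neighbouring copies. Not every level and ratio of these members is printed. The other members named were chosen after their values were seen. No gene names, lengths or sequences of these models were used here.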

Additional observations from a re-analysis of the deposited data

How the results depend on the processing

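No call of a member changed direction in any setting. Of 1554 alternative ratios of the 37 members in the 3 comparisons, 1376 kept direction and side of the threshold, 107 missed it, 41 newly passed it and 30 changed sign, all of the last in ratios that the test did not call. In LTM against CHX these were, on the log2 scale, Solyc02g070940 0.053, 0.00877; Solyc02g070950 0.071, 0.028; Solyc02g071030 0.10, 0.059, 0.015; Solyc05g056070 0.19, 0.14, 0.10, 0.039, 0.15; Solyc06g074200 0.16, 0.12, 0.073, 0.087; Solyc06g083680 0.22, 0.17, 0.13, 0.029; Solyc07g066150 -0.074. In LTM against mRNA they were Solyc02g079950 -0.037, -0.031, -0.00681; Solyc06g082940 -0.080; Solyc07g047850 0.069, 0.22; Solyc08g013670 -0.042, -0.035, -0.012. They arose under library totals with or without the members' counts, the 10 CPM filter, upper-quartile factors or 1 library left out. Library totals without the members' counts gave 4 members lower in LTM than in CHX with a median of -0.27, and 1460 of all models lower. Against mRNA this scaling gave 8291 models higher and 3676 lower, and a members' median of 1.15. Plain totals gave 4 members and 1228 models lower in LTM than in CHX, with a members' median of -0.23, and 0.99 in LTM against mRNA. Upward calls were then 82.6% of all calls in LTM against CHX, beside 53.3% with TMM, and 62.2% beside 48.2% in LTM against mRNA. The filter of 10 CPM in 2 libraries left 8292 models and a members' median of 0.91 in CHX against mRNA, where all models moved by a median of -0.27, and of -0.31 in LTM against CHX, where all models moved by 0.20, with 11 members lower. Counts higher and lower among all models were then 1700 and 2334, 2222 and 1717, and 2454 and 2292 in the 3 comparisons, in part because fewer models were tested. A 2-fold minimum beside the adjusted p left 2 members lower in LTM than in CHX and 8 higher in LTM than in mRNA. Among all models it left 1741 higher (CHX against mRNA) and 1022 lower (LTM against CHX). For LTM against mRNA, 19.1% of all models had a fitted ratio of 2-fold or more, whatever their p.

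With each library left out in turn, 35 to 37 members were higher in CHX than in mRNA, 6 to 16 were lower in LTM than in CHX (fewest without CHX replicate 1) and 15 to 22 were higher in LTM than in mRNA (fewest without mRNA replicate 2). Among all models, 2678 to 4920 were higher for CHX against mRNA (fewest without mRNA replicate 1) and 2482 to 3522 were lower for LTM against CHX (fewest without CHX replicate 1). Each such fit takes the lone library of a kind to vary like the other kinds, and apart from the fewer libraries the cause was not tested. For LTM against mRNA, the members' median log2 ratio in these fits ran from 0.64 to 0.74, beside -0.018 to 0.12 over all tested models. Where one of these fits changed the sign, the log2 ratio ran from -0.41 to 0.15 in Solyc05g056070, from -0.34 to 0.087 in Solyc06g074200, from -0.18 to 0.029 in Solyc06g083680 and from -0.074 to 0.28 in Solyc07g066150 for LTM against CHX, and from -0.00681 to 0.11 in Solyc02g079950, from -0.080 to 0.31 in Solyc06g082940 and from -0.012 to 0.080 in Solyc08g013670 for LTM against mRNA. By the protocol mRNA and CHX share an extract, but no label says that equal replicate numbers share one, so no pairing was used. Correlations of same-numbered deviations were 0.356, 0.338 and 0.207 in the 3 comparisons, and a replicate block gave 37 members higher, 22 lower and 27 higher, beside 27.03%, 25.5% and 29.1% of all models in these directions, with medians of 1.19, -0.52 and 0.72. Members newly called under the block were Solyc05g056050, Solyc06g060340, Solyc07g044860 and Solyc10g007690 for LTM against CHX and Solyc01g105050, Solyc02g065400 and Solyc03g005760 for LTM against mRNA, and no member's call was lost. Depth does not limit these values, since no member had under 10936 counts, and how reads shared by near-identical copies were counted is not given in the sources used here.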
